A study of Mus musculus with 8 samples.

Results

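The BAF complexes, the mammalian SWI/SNF chromatin remodellers, were followed through 10 of their subunit genes in mouse embryonic stem (ES) cells and induced pluripotent stem (iPS) cells. The 10 genes were Smarca2, Smarca4, Smarcb1, Smarcc1, Smarcc2, Smarcd1, Smarce1, Arid1a, Arid1b and Actl6a. Their probe sets were found by the gene symbol in the platform annotation, which gave 23 of the 45101 probe sets on the array and 10 of the 18194 genes with a probe set of 1 symbol. RNA from 1 ES line and 3 iPS lines was hybridised to 8 Affymetrix 3' expression arrays, with 2 arrays per line. All 4 lines were male and of C57BL/6 background, were taken at passage 7 to 10, and grew in N2B27 medium with leukaemia inhibitory factor; the series title describes the iPS cells as integration-free. The labels do not give the somatic cell of origin of the iPS lines or the reprogramming agents, and the ES group was a single line. The 2 arrays of a line are titled biological replicates, yet separate cultures are not mentioned, and the p-values therefore reflect array-to-array spread that may be technical in part. In such bulk RNA, fewer cells with a transcript and less transcript per cell cannot be told apart.

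BAF complexes use the energy of ATP hydrolysis to slide or evict nucleosomes, which opens DNA to transcription factors. Each complex holds 1 ATPase, Smarca4 (BRG1) or Smarca2 (BRM), with Smarcc and Smarcd subunits and an actin-related subunit next to the ATPase; Smarcb1 and Smarce1 join canonical BAF and PBAF. Further subunits set the kind of assembly: Arid1a or Arid1b mark canonical BAF, Arid2 and Pbrm1 mark PBAF, and Brd9 with Bicra or Bicral mark the non-canonical complex, ncBAF, which lacks Smarcb1 and Smarce1. ES cells are known for an assembly called esBAF, which is built around Smarca4, Smarcc1 and Arid1a and is needed for self-renewal.

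The upstream sequences of the 3 genes called against ES cells in iPS line 2 are shown here as a description, and no expression result below uses them. Each runs 5′ to 3′ on the gene's strand and covers the 250 bases before an annotated start, from RefSeq on build GRCm38.p6. Capitals mark GC boxes (GGGCGG, on either strand) and NRF1 half-sites (CATGCGC, on either strand).
Smarca4, chr9:21615919-21616168, plus strand: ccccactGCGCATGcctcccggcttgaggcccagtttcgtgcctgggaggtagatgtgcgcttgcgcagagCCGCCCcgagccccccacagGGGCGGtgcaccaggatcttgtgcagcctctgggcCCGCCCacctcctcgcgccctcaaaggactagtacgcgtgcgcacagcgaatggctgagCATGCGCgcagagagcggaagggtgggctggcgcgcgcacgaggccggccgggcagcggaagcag
Arid1a, upstream start, chr4:133756770-133757019, minus strand: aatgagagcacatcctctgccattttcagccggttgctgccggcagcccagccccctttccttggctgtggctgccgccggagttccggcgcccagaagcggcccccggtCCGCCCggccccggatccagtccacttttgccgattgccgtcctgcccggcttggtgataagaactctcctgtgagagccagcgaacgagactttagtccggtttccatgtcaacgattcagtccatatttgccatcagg
Actl6a, chr3:32708296-32708545, plus strand: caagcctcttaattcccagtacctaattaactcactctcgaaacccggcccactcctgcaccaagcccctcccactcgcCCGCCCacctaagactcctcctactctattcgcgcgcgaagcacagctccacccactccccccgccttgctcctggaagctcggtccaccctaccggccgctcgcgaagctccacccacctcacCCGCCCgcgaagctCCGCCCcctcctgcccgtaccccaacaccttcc

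The Smarca4 window held 3 GC boxes and 2 NRF1 half-sites, the printed Arid1a window 1 GC box and the Actl6a window 3 GC boxes. The window of the other Arid1a start, chr4:133753986-133754235, held 7. RefSeq windows were matched for 9 of the 10 genes, with 2 starts for Arid1a and no entry used for Smarce1. A GC box was present in 9 of these 10 windows, all but that of Smarcc2, and in 32.7% of 32851 promoter windows of the same length. An NRF1 half-site occurred in 2 of the 10 windows, those of Smarca4 and Smarcc1, against 3.24% of all windows, and a CCAAT box in 0 of 10 against 33.8%. An ETS core (CCGGAAG) occurred in the Smarca2 and Smarcc1 windows, 2 of 10 against 6.91%. The HIF core (ACGTG, which lies within the E-box CACGTG) occurred in the Smarcb1 window, 1 of 10 against 16.6%. The E-box and the YY1 core (AAGATGGC) were in 0 of 10 windows, against 6.02% and 1.56%. GC content ran from 59.6% to 81.6% over the 10 windows, all above the median of 52.4% over all windows. The motifs were chosen after the expression values were seen, and a match describes the letters only.

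The deposited values are MAS5 signals, linear intensities per probe set, and every array had been scaled to the same trimmed mean of 500.004. All 10 pluripotent cell markers examined were above the intensity floor of 37.1 in all 8 arrays, with summed signals of 106575 to 122037. In iPS line 2, limma called 3 of these 10 lower than in ES cells and 0 higher, beside 10.6% and 16.1% of all genes. They were Utf1 at -0.86 (limma adjusted p 0.000826), Dppa4 at -0.80 (adjusted p 1.97e-05) and Pou5f1 at -0.23 (adjusted p 0.0152). For the mean of the lines 2 of 10 were called lower, Dppa4 at -0.38 and Utf1 at -0.43, where 7.33% of all genes were called. In iPS lines 1 and 3 each 0 were called (2.33% and 4.17% of all genes), with 10 and 8 of the 10 differences below 0. Of 12 fibroblast markers, 4 to 6 were above the floor, and their summed signal was 521 and 583 in iPS line 2 against 339 to 406 in the other 6 arrays. That difference came largely from Pdgfrb, at 247 and 177 in iPS line 2 and 24.5 to 58.2 elsewhere. Of 9 measured neural markers, 7 to 9 were above the floor, with a summed signal of 1131 to 1161 in iPS line 2, 1265 to 1284 in ES cells and 1606 to 1727 in iPS lines 1 and 3. Of 9 primitive endoderm markers, 5 to 7 were above the floor, with a summed signal of 456 to 488 in iPS line 2. That sum was 429 to 430 in ES cells and 370 to 423 in iPS lines 1 and 3. The actin 3'/5' probe ratio, a sign of RNA integrity, was 1.74 and 1.79 in iPS line 2 and 1.49 to 1.62 in the other arrays. The same ratio for Gapdh was 0.915 and 0.946 in iPS line 2 and 0.856 to 0.935 in the other arrays, which overlapped. The part of these differences in the iPS line 2 results was not tested.

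Of the 23 probe sets, 20 were above the floor in at least 2 arrays and could be tested. The others were 1456938_at of Smarcb1, above the floor in 1 array, and 1420240_at of Smarcd1 and 1430822_at of Smarce1, above it in 0 arrays. Each gene was represented by its probe set of highest mean signal, and for all 10 genes that probe set was above the floor in all 8 arrays. Differences are given as log2(signal + 12.4) with standard errors from limma; its p-values carry a Benjamini-Hochberg adjustment over 14005 genes, and a gene was called at an adjusted p under 0.05.

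**Figure D1:**
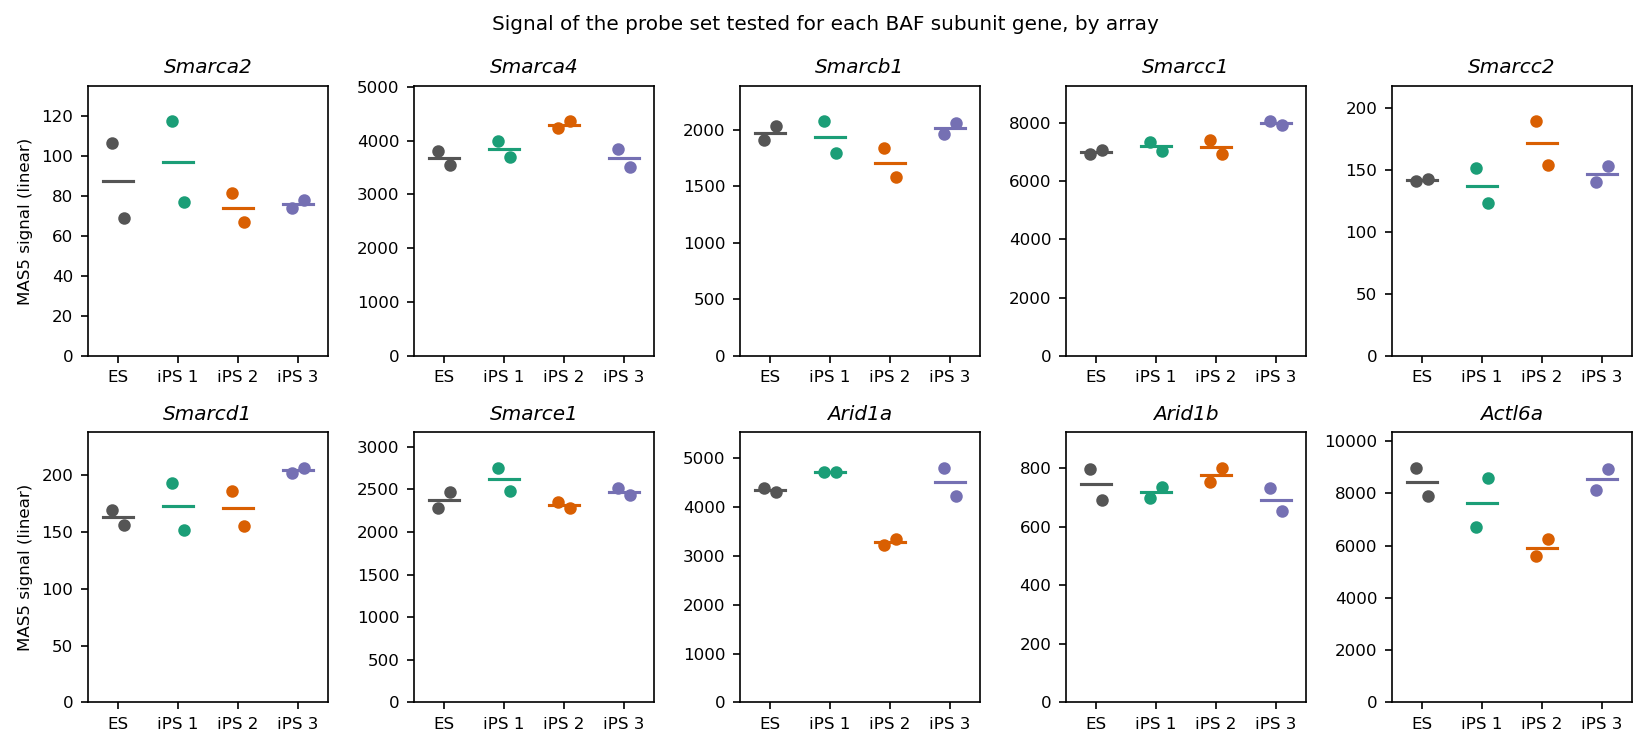
MAS5 signal (linear axis from 0) of the tested probe set of each of the 10 BAF subunit genes, with 1 point per array and a line at the mean of the 2 arrays of each line. Both iPS line 2 arrays lie below the other 6 for Arid1a (3233 and 3348) and Actl6a (5596 and 6258) and above them for Smarca4 (4229 and 4360).

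The first question was whether the iPS lines as a group differed from ES cells. With the 3 lines averaged, 0 of the 10 genes were called by limma against ES cells, where 7.33% of all genes were called. One gene, Actl6a, had an unadjusted p under 0.05, and its adjusted p was 0.168. The 10 differences ran from -0.21 for Actl6a to 0.15 for Smarcd1, with a median of 0.01 beside 0.02 over all genes. At the main probe set, which represented each gene, in no member did the 6 iPS arrays lie wholly above or below both ES arrays, 0 of 10 against 12.9% of all genes. The later counts of genes with separated arrays also used the main probe set only. A further Smarcb1 probe set, described below, did separate the iPS from the ES arrays. The 95% interval was widest for Smarca2, from -0.60 to 0.46, and was narrower for Smarca4 (-0.03 to 0.22), Arid1a (-0.20 to 0.04) and Smarcc1 (-0.02 to 0.19).

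Taken singly, iPS line 1 and iPS line 3 gave no call among the 10 genes, and iPS line 2 gave 3. In iPS line 1, 0 of 10 genes were called (2.33% of all genes) and 0 had an unadjusted p under 0.05. In iPS line 3, 0 of 10 were called (4.17% of all genes) and 1, Smarcc1, had an unadjusted p under 0.05. In iPS line 2, Smarca4 was higher than in ES cells (16.1% of all genes called higher) and Arid1a and Actl6a were lower (10.6% called lower). The 3 of 10 members called in iPS line 2 are close to the 26.7% of all genes called there, so the count itself does not set BAF genes apart. Median differences over the 10 genes were 0.05 in iPS line 1, -0.00 in iPS line 2 and 0.04 in iPS line 3, beside 0.01, 0.07 and -0.01 over all genes. These comparisons share the 2 ES arrays and are not independent of each other. Both arrays of a line lay above, or both below, the 2 ES arrays for 2 of 10 genes in iPS line 1 (44.4% of all genes; Arid1a and Smarce1, higher), for 5 of 10 in iPS line 2 (61.4%; Smarca4 and Smarcc2 higher, Arid1a, Actl6a and Smarcb1 lower) and for 2 of 10 in iPS line 3 (48.4%; Smarcc1 and Smarcd1, higher).

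Smarca4, the ATPase of esBAF on chromosome 9, gave signals of 3802 and 3544 in ES cells, 4001 and 3694 in iPS line 1, 4229 and 4360 in iPS line 2, and 3850 and 3516 in iPS line 3. The iPS line 2 arrays were the highest of the 8, and the other lines overlapped. The difference of iPS line 2 from ES cells was 0.23 ± 0.07 (SE), a 1.17-fold higher signal, with a limma adjusted p of 0.0323. A further probe set of Smarca4, 1426805_at, read 984 and 1078 in ES cells and 1335 and 1439 in iPS line 2, with an adjusted p of 0.0149 over all probe sets tested. Its iPS arrays outside line 2 ran from 1054 to 1329, so ES cells and iPS line 3 overlapped. The gene-level call was lost when each array was centred on its median (0.14, adjusted p 0.315), and when any single array of either line was left out (adjusted p 0.0528 and 0.209 with ES control replicate 1 or 2 removed, 0.0695 and 0.129 with iPS line 2 replicate 1 or 2 removed). It was also lost without an intensity trend in the variance (adjusted p 0.152). The call of 1426805_at was lost with centring (0.34, adjusted p 0.0773), without the trend (0.110), and with ES control replicate 1 (0.119) or iPS line 2 replicate 2 (0.0948) left out.

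Smarca2, the alternative ATPase on chromosome 19, gave low signals, 107 and 69.0 in ES cells, 117 and 76.9 in iPS line 1, 81.3 and 67.2 in iPS line 2, and 74.2 and 77.8 in iPS line 3. All 4 lines overlapped, and arrays of 1 line differed by as much as the lines did. Its difference from ES cells was 0.13 ± 0.30 in iPS line 1, -0.19 ± 0.30 in iPS line 2 and -0.15 ± 0.30 in iPS line 3. The interval in iPS line 2 ran from -0.84 to 0.46, the widest among the members. Its other tested probe set, 1452333_at, was above the floor in 4 of 8 arrays, between 10.4 and 60.6. Within each array, the log2 difference of the Smarca4 probe set over the Smarca2 probe set was 5.00 and 5.45 in ES cells, 4.95 and 5.38 in iPS line 1, 5.50 and 5.78 in iPS line 2, and 5.48 and 5.29 in iPS line 3. That ratio is of different probes and is read between lines only; both iPS line 2 arrays were the highest, at 0.41 above the ES mean on average, with the lower of them next to an iPS line 3 array.

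Among the core subunits, none of Smarcb1, Smarcc1, Smarcc2, Smarcd1 and Smarce1 was called by its main probe set in any line. Smarcc1 (BAF155), the scaffold subunit of esBAF on chromosome 9, gave 6933 and 7075 in ES cells, 7340 and 7035 in iPS line 1, 7401 and 6933 in iPS line 2, and 8049 and 7921 in iPS line 3. Both iPS line 3 arrays were the highest of the 8. That difference from ES cells was 0.19 ± 0.06, with a limma adjusted p of 0.0986, so it did not pass the threshold. Smarcc2 (BAF170), its paralogue on chromosome 10, gave 141 and 143 in ES cells, 151 and 123 in iPS line 1, 189 and 154 in iPS line 2, and 140 and 153 in iPS line 3. Both iPS line 2 arrays were above the rest, the lower of them by the width of rounding over an iPS line 3 array, and the difference from ES cells was 0.25 ± 0.20 (adjusted p 0.403).

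Smarcd1 (BAF60A), which links the complex to transcription factors and lies on chromosome 15, gave 170 and 157 in ES cells, 194 and 152 in iPS line 1, 186 and 156 in iPS line 2, and 202 and 207 in iPS line 3. The iPS line 3 arrays were highest, and the difference of 0.31 ± 0.18 had an adjusted p of 0.426. Smarce1 (BAF57), an HMG-box subunit on chromosome 11, gave 2287 and 2467 in ES cells, 2755 and 2488 in iPS line 1, 2353 and 2286 in iPS line 2, and 2512 and 2430 in iPS line 3. The ES arrays overlapped those of iPS lines 2 and 3, and the 3 differences ran from -0.03 to 0.14. With all its probe sets averaged, Smarce1 was called lower in iPS line 2 against ES cells (-0.30, limma adjusted p 0.0499). Smarcb1 (SNF5), the subunit that binds the nucleosome's acidic patch, on chromosome 10, gave 1911 and 2031 in ES cells, 2075 and 1795 in iPS line 1, 1834 and 1584 in iPS line 2, and 1965 and 2056 in iPS line 3. Its iPS line 2 arrays lay below both ES arrays, by 0.21 ± 0.09, with an adjusted p of 0.119; its interval ran from -0.41 to -0.01. Centring each array on its median brought that difference to an adjusted p under 0.05, as did leaving out iPS line 2 replicate 1, where it was -0.31.

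Of the ARID subunits, which carry a DNA-binding domain and mark canonical BAF, Arid1a was called lower in iPS line 2 and Arid1b was not called. Arid1a, on chromosome 4, gave 4392 and 4312 in ES cells, 4728 and 4718 in iPS line 1, 3233 and 3348 in iPS line 2, and 4808 and 4223 in iPS line 3. The iPS line 2 arrays lay below the other 6 without overlap. Arid1a fell by 0.40 on the log2 scale in iPS line 2 against ES cells (SE 0.07, 1.32-fold lower, limma adjusted p 0.000956). Its other probe set, 1417440_at, read 247 and 271 in ES cells, 297 and 372 in iPS line 1, 181 and 127 in iPS line 2, and 275 and 164 in iPS line 3. That probe set was lower too, by -0.72 ± 0.23 (adjusted p 0.0447 over all probe sets tested), although 1 iPS line 3 array lay within the iPS line 2 range. Its call was lost without either ES array (adjusted p 0.114 and 0.185) and without iPS line 2 replicate 2 (-0.48, adjusted p 0.274), whereas the gene-level call of Arid1a held under all 15 alternatives run. Arid1b, the alternative ARID subunit on chromosome 17, gave 798 and 692 in ES cells, 700 and 737 in iPS line 1, 753 and 802 in iPS line 2, and 731 and 653 in iPS line 3. The lines overlapped, and Arid1b differed from ES cells by 0.06 ± 0.10 in iPS line 2, with an interval from -0.16 to 0.29. Within an array, the log2 difference of the Arid1a over the Arid1b probe set was 2.44 and 2.62 in ES cells and 2.08 and 2.05 in iPS line 2, against 2.66 to 2.74 in iPS line 1 and 2.67 to 2.70 in iPS line 3. The iPS line 2 arrays were the lowest of the 8, at -0.46 from the ES mean.

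Actl6a (BAF53A), the actin-related subunit of proliferating and pluripotent cells on chromosome 3, gave 8984 and 7890 in ES cells, 6714 and 8577 in iPS line 1, 5596 and 6258 in iPS line 2, and 8144 and 8937 in iPS line 3. Both iPS line 2 arrays were below all others, the nearest being 1 iPS line 1 array at 6714. Actl6a fell by 0.51 on the log2 scale in iPS line 2 against ES cells (SE 0.10, 1.42-fold lower, limma adjusted p 0.00313). A further probe set, 1456730_x_at, gave 7673 and 8061 in ES cells and 5462 and 6461 in iPS line 2 (-0.40 ± 0.08, adjusted p 0.00291 over all probe sets tested), and the other lines ran from 7463 to 8226. Its suffix marks probes that can match more than 1 sequence. The remaining probe set, 1429883_at, gave 2386 and 2302 in ES cells and 2200 and 1832 in iPS line 2; its difference of -0.22 did not pass the threshold (adjusted p 0.100). The gene-level call was lost without the intensity trend (adjusted p 0.076). The neural paralogue Actl6b was below the floor in all 8 arrays, at 5.27 to 18.8.

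**Figure D2:**
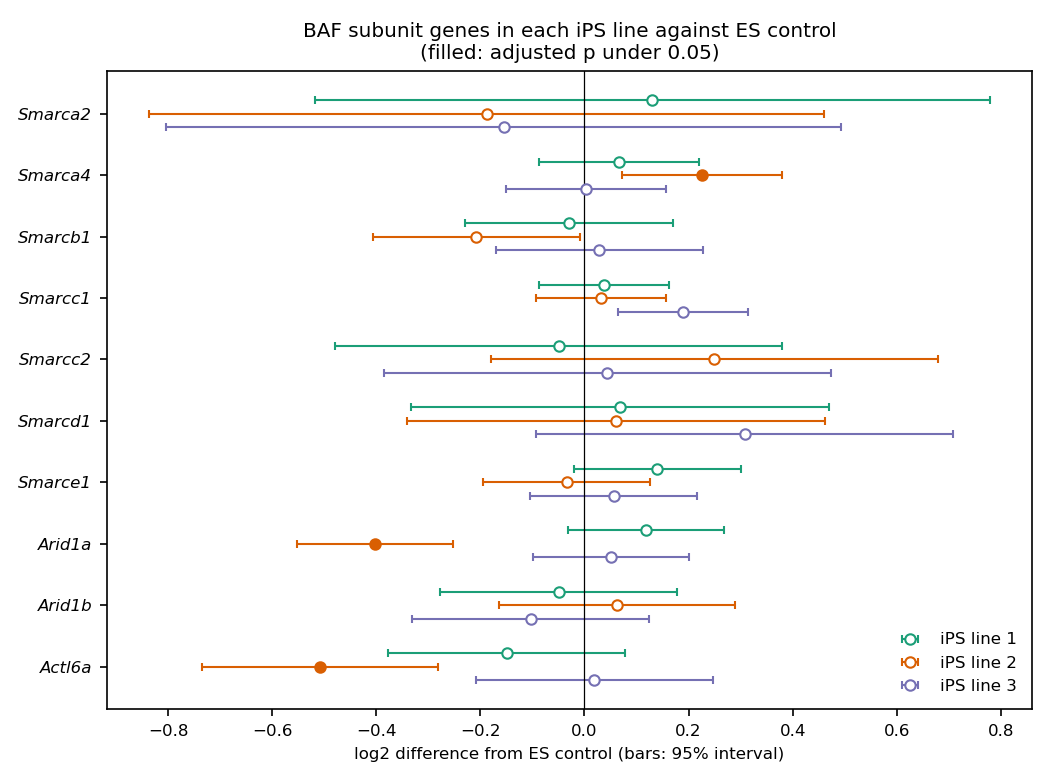
Difference from ES cells on the log2(signal + 12.4) scale, with 95% intervals, for each BAF subunit gene in iPS lines 1, 2 and 3; filled points have a limma adjusted p under 0.05. The filled points are Arid1a, Actl6a and Smarca4 in iPS line 2, at -0.40, -0.51 and 0.23, and every other point is open.

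Other probe sets of the 10 genes gave further calls, so the result depended on the probe set. At the level of probe sets, 8 of 20 were called in iPS line 2 against ES cells (21.3% of all probe sets), 1 of 20 in iPS line 1 (1.35%), 1 of 20 in iPS line 3 (2.45%) and 1 of 20 for the mean of the 3 lines (4.82%). The probe sets of 1 gene share transcripts and are not independent. The call shared by all 3 lines was Smarcb1 1435856_x_at, a probe set with the same suffix. It gave 417 and 453 in ES cells, 700 and 1175 in iPS line 1, 788 and 746 in iPS line 2, and 846 and 1148 in iPS line 3, so each of the 6 iPS arrays exceeded both ES arrays. The mean difference was 1.00 ± 0.16 (limma adjusted p 0.00334), with 1.04 in iPS line 1, 0.80 in iPS line 2 and 1.16 in iPS line 3. The main Smarcb1 probe set, 1416045_a_at, gave -0.07 ± 0.07 for the same mean, and over the 8 arrays the pair correlated at r = -0.13. Without ES control replicate 1 the mean call was lost (0.94, adjusted p 0.0776), as were those of iPS line 1 (adjusted p 0.182), line 2 (0.0787) and line 3 (0.0993). The call in iPS line 1 was also lost without ES control replicate 2 (0.124) or iPS line 1 replicate 2 (0.67, adjusted p 0.147). Those in iPS line 2 and line 3 were lost without iPS line 2 replicate 1 (adjusted p 0.0661), and without ES control replicate 2 (0.0617) or iPS line 3 replicate 2 (0.0896), respectively. What the 1435856_x_at probes measure was not tested.

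The Smarce1 probe set 1422676_at was called lower in iPS line 2, with 491 and 645 in ES cells, 638 and 549 in iPS line 1, 384 and 368 in iPS line 2, and 641 and 565 in iPS line 3. Both iPS line 2 arrays were the lowest of the 8 (-0.57 ± 0.14 against ES cells, adjusted p 0.0119), and the main Smarce1 probe set was not called. Leaving out ES control replicate 2 (-0.37, adjusted p 0.137) or iPS line 2 replicate 2 (adjusted p 0.0626) ended that call. Between iPS lines, 5 of 20 probe sets were called for line 2 against line 1 (17.8% of all probe sets), 5 for line 2 against line 3 (25.2%) and 0 for line 3 against line 1 (0.715%; 2 of 20 at an unadjusted p under 0.05). Across the 8 arrays the 2 probe sets of Smarca4 correlated at r = 0.80, those of Arid1a at 0.81 and those of Smarce1 at 0.74. The 3 of Actl6a correlated at 0.76, 0.33 and 0.21, and the 4 of Smarcc1 between -0.37 and 0.62. The Smarcc1 probe sets other than the main one gave no call: 1455246_at ran from 3679 to 4674, 1423417_at from 553 to 1060 and 1459824_at from 37.7 to 75.4.

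**Figure D3:**
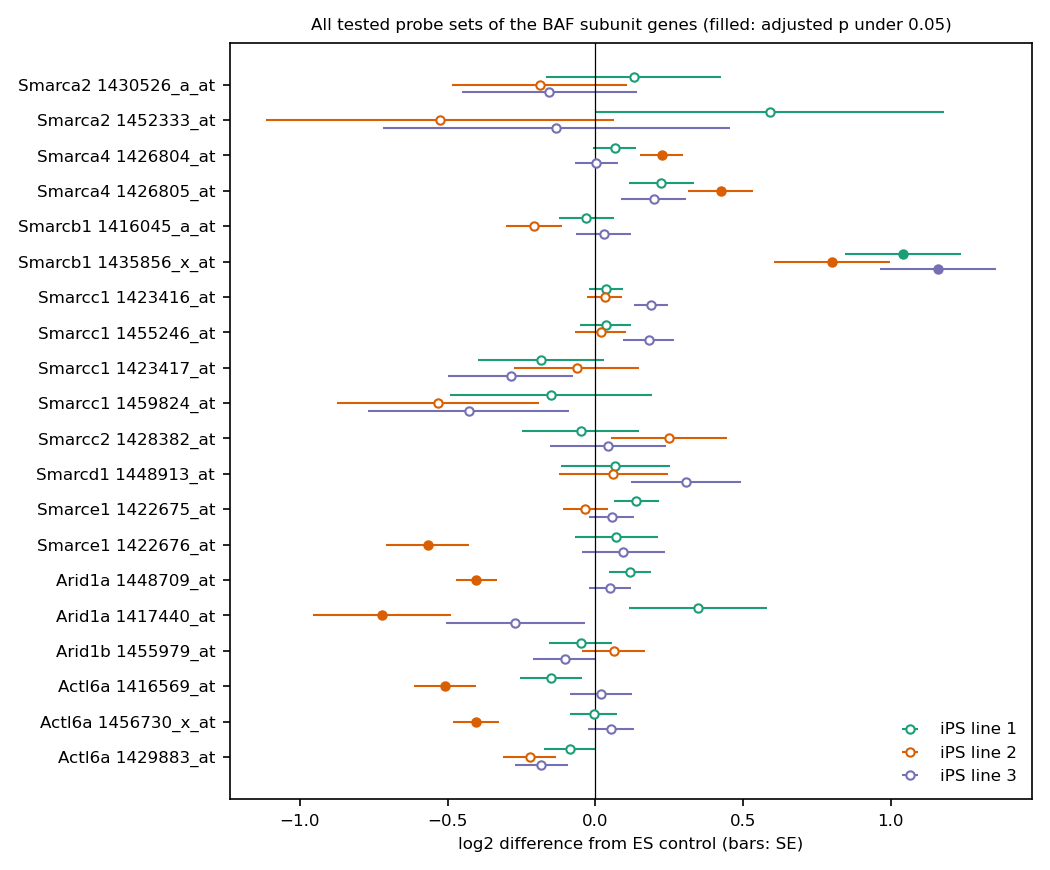
Difference from ES cells on the log2(signal + 12.4) scale, with standard errors, for the 20 tested probe sets of the BAF subunit genes in iPS lines 1, 2 and 3; filled points have a limma adjusted p under 0.05 over 25745 probe sets. Smarcb1 1435856_x_at is filled in all 3 lines, at 1.04, 0.80 and 1.16, and the other filled points are all of iPS line 2.

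The iPS lines were next compared with each other. Against iPS line 1, iPS line 2 had 2 of 10 genes called by limma (23.3% of all genes): Arid1a at -0.52 ± 0.07 (adjusted p 0.000221) and Actl6a at -0.36 ± 0.10 (adjusted p 0.0259). Smarca4 was at 0.16 ± 0.07 in that comparison and did not pass (adjusted p 0.130). With quantile normalization it was called there (0.23, limma adjusted p 0.0306). Against iPS line 3, iPS line 2 had 3 of 10 called (31.1% of all genes): Arid1a at -0.45 ± 0.07 (adjusted p 0.000312), Actl6a at -0.53 ± 0.10 (adjusted p 0.00199) and Smarca4 at 0.22 ± 0.07 (adjusted p 0.0305). With arrays centred on their medians, Smarcc1 (-0.29, adjusted p 0.0130) and Smarcb1 (-0.37, adjusted p 0.0115) were also called lower there. Smarcc1 was called too with the filter at the 50th percentile (adjusted p 0.0492). Without iPS line 2 replicate 1, Smarcc1 was at -0.20 and Smarcb1 at -0.34. Between iPS lines 3 and 1, 0 of 10 genes were called (1.41% of all genes), with 1, Smarcc1 at 0.15, at an unadjusted p under 0.05. The intervals of the 10 genes in that comparison reached from -0.93, for Smarca2, to 0.64, for Smarcd1. Both iPS line 2 arrays lay above, or both below, the other 6 arrays for 4 of 10 genes (38.1% of all genes), with Arid1a and Actl6a lower and Smarca4 and Smarcc2 higher. The call of Smarca4 against iPS line 3 was lost with centring (limma adjusted p 0.524), without the intensity trend (adjusted p 0.142) and with its probe sets averaged (0.22, adjusted p 0.0653). It was also lost without iPS line 2 replicate 1 (0.24) or 2 (0.20) and without iPS line 3 replicate 2 (0.16). For Actl6a, the call against iPS line 3 was lost without the intensity trend (limma adjusted p 0.0609). The call of Actl6a against iPS line 1 was lost without iPS line 1 replicate 2 (-0.18, adjusted p 0.253), without iPS line 2 replicate 1 (-0.28, adjusted p 0.167), with quantile normalization (adjusted p 0.0681) and without the intensity trend (adjusted p 0.178).

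Beyond the 10 genes, 21 further subunits of BAF, PBAF and ncBAF were listed and 20 could be tested. Against ES cells, 2 were higher and 1 lower for the mean of the 3 lines, 1 was higher in iPS line 1, 6 were higher and 1 lower in iPS line 2, and 1 was higher in iPS line 3. The median difference was 0.14, 0.03, 0.22 and 0.12, in the same order, beside 0.02, 0.01, 0.07 and -0.01 over all genes. These counts of 3, 1, 7 and 1 of 20 stand beside 7.33%, 2.33%, 26.7% and 4.17% of all genes called in the same comparisons.

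Arid2, the ARID subunit of PBAF, was called higher in every iPS line. Its signals were 3014 and 3021 in ES cells, 3675 and 3691 in iPS line 1, 3951 and 3784 in iPS line 2, and 3720 and 3742 in iPS line 3, with no overlap of iPS and ES arrays. The difference from ES cells was 0.29 in iPS line 1 (limma adjusted p 0.0254), 0.36 in iPS line 2 (adjusted p 0.000817), 0.31 in iPS line 3 (adjusted p 0.0127) and 0.32 ± 0.05 for their mean (adjusted p 0.00183). A further Arid2 probe set, 1434506_at, gave 664 and 640 in ES cells and 754 to 827 in the 6 iPS arrays, while another, 1454990_at, overlapped between ES (1365 and 1224) and iPS arrays (1335 to 1635). With the mean of all probe sets as the gene value, the adjusted p was 0.519 in iPS line 1, 0.0755 in iPS line 2, 0.316 in iPS line 3 and 0.155 for the mean of the lines. Without the intensity trend it was 0.196 in iPS line 1, 0.146 in iPS line 3 and 0.0635 for the mean of the lines. Centring arrays on their medians gave 0.0581 in iPS line 1. Leaving out any one array of the lines compared ended the Arid2 call in iPS line 1 (adjusted p 0.126 to 0.170) and in iPS line 3 (adjusted p 0.0727 to 0.104).

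The other calls lay in iPS line 2 or in the mean that includes it. Smarcd2 (BAF60B), a paralogue of Smarcd1, gave 3313 and 3494 in ES cells, 3806 and 3979 in iPS line 1, 5512 and 5576 in iPS line 2, and 3805 and 3812 in iPS line 3. It rose by 0.70 ± 0.06 in iPS line 2 (limma adjusted p 5.03e-06) and by 0.35 ± 0.05 for the mean of the lines (adjusted p 0.000914), and in iPS line 2 the call held under all 15 alternatives run. The mean call of Smarcd2 was lost without iPS line 2 (0.18, adjusted p 0.105), with its probe sets averaged (0.23, adjusted p 0.126) and without the intensity trend (adjusted p 0.0569). Ss18l1 (CREST), the subunit of post-mitotic neurons, gave 119 and 117 in ES cells, 112 and 134 in iPS line 1, 218 and 250 in iPS line 2, and 129 and 124 in iPS line 3, a rise of 0.91 ± 0.19 in iPS line 2 (adjusted p 0.00368). Of its neuronal companions, Dpf1 was not called, Dpf3 was above the floor in 2 arrays and Actl6b in 0. Bcl11b, a zinc-finger subunit best known from T cells, gave 43.7 and 56.4 in ES cells, 37.8 to 92.1 in iPS lines 1 and 3, and 168 and 173 in iPS line 2, and rose by 1.56 ± 0.36 (adjusted p 0.00633). Without ES control replicate 1 the Bcl11b difference was 1.09 and its adjusted p 0.0684.

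By assembly, a grouping made after the values were seen, PBAF subunits were called higher in iPS line 2 in 3 of 4 cases, Arid2, Phf10 and Pbrm1, beside 16.1% of all genes called higher there. Phf10 (BAF45A), a PHD-finger subunit, gave 3108 and 2955 in ES cells and 4126 and 3603 in iPS line 2, with 3063 to 3874 in the other iPS lines (0.35 ± 0.09 against ES cells, limma adjusted p 0.0109). Pbrm1 (BAF180), the polybromo subunit, named after its value was seen, gave 2764 and 2740 in ES cells, 3016 and 2973 in iPS line 1, 2965 and 3462 in iPS line 2, and 3205 and 3191 in iPS line 3. Its call in iPS line 2 was marginal (0.22 ± 0.08, adjusted p 0.0482) and was lost under 8 of 15 alternatives, down to 0.11 without iPS line 2 replicate 2. The Phf10 call was lost under 4, down to 0.25 without iPS line 2 replicate 1 (adjusted p 0.102) and at adjusted p 0.0802 without ES control replicate 2. With arrays centred on their medians, Phf10 was at adjusted p 0.0716 and Pbrm1 at 0.334.

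For ncBAF, Bicral was the one subunit of 3 called against ES cells. It gave 1159 and 1104 in ES cells, 796 and 940 in iPS line 1, 621 and 829 in iPS line 2, and 946 and 1022 in iPS line 3, so all 6 iPS arrays were below both ES arrays. Bicral fell by 0.65 on the log2 scale in iPS line 2 (SE 0.13, limma adjusted p 0.00238) and by 0.41 for the mean of the lines (SE 0.10, adjusted p 0.0323). The mean call was lost without iPS line 2 (-0.29, adjusted p 0.0928) and without either ES array (adjusted p 0.249 and 0.146), iPS line 1 replicate 1 (0.067) or iPS line 3 replicate 1 (0.0651). Against iPS line 3, all 3 ncBAF subunits were called lower in iPS line 2 by limma, beside 12.1% of all genes. Brd9 was at -0.37 (adjusted p 0.00467), Bicra at -0.71 (adjusted p 0.0424) and Bicral at -0.45 (adjusted p 0.0175). All 3 were named after their values were seen, and no alternatives were run for them in this comparison. In canonical BAF, Arid1a alone among 5 was called against ES cells in iPS line 2, and Dpf2 (BAF45D), named after its value was seen, was at 0.22 ± 0.08 (adjusted p 0.0622).

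**Figure D4:**
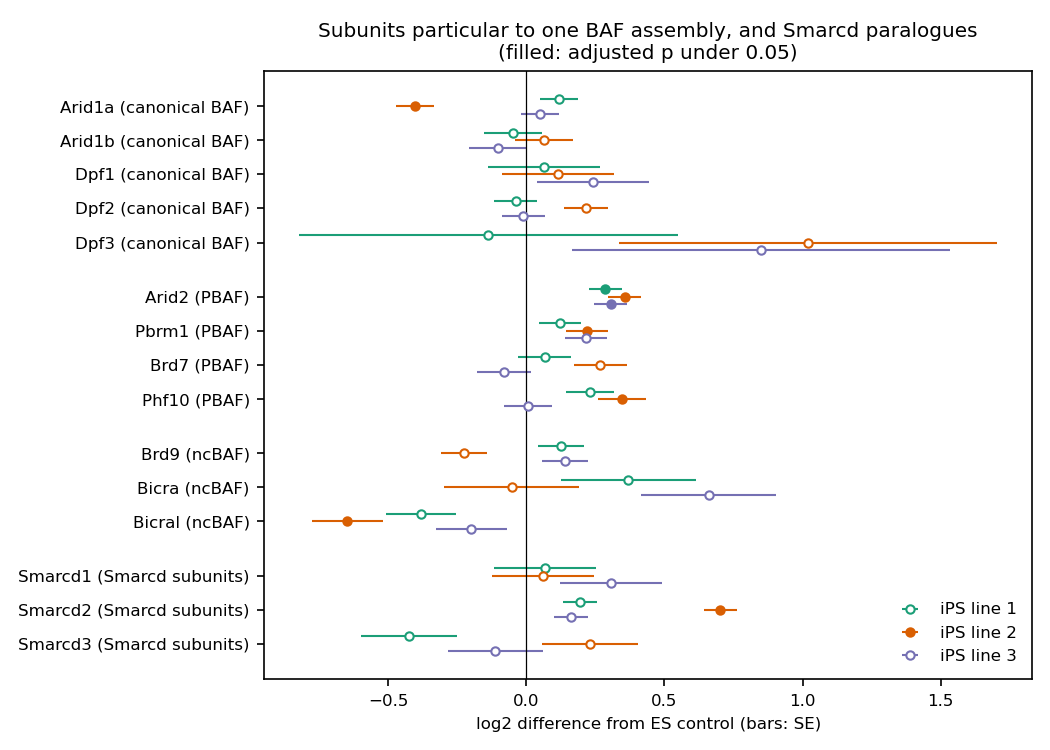
Difference from ES cells on the log2(signal + 12.4) scale, with standard errors, for subunits of canonical BAF, PBAF and ncBAF and for the Smarcd paralogues in iPS lines 1, 2 and 3; filled points have a limma adjusted p under 0.05. Arid2 is filled in all 3 lines at 0.29, 0.36 and 0.31, and in iPS line 2 Arid1a (-0.40) and Bicral (-0.65) lie on the lower side and Pbrm1 (0.22), Phf10 (0.35) and Smarcd2 (0.70) on the higher side.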

How the data were processed

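RNA of 1 mouse ES line and 3 iPS lines was measured on 8 arrays. The authors deposited 1 linear intensity per probe set and array, which MAS5 computed, per the submitters' processing notes. Its version and scaling target are not given in the sources. Symbols came from the platform annotation, and 34958 probe sets had 1 symbol. Signals were taken as log2(signal + 12.3587), the 20th percentile of all signals, and probe sets above the 40th percentile (37.1201) in at least 2 arrays were kept. A gene took its probe set of highest mean log2 value, which left 14005 genes; 25745 probe sets were also fitted singly. Groups were compared with limma 3.58.1 (R 4.3.3; lmFit on all 8 arrays, eBayes with an intensity trend), with Benjamini-Hochberg adjustment. The model was tested on simulated data. The number of arrays limits the precision.

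The members and lists were chosen with earlier results of these data known. The text names all members, up to 6 called further BAF subunits per comparison with ES cells and up to 2 called genes of each other remodeller list, by adjusted p, and the 3 genes most correlated with each ATPase gene. Alternatives covered scaling, pseudocount, filter, variance trend, replicate block, the gene value, the groups fitted and each array left out. Control probe sets were left out.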

Additional observations from a re-analysis of the deposited data

Results flagged for a closer look

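The contrast with ES cells shares the ES arrays between lines. A difference between 2 iPS lines is therefore the test of whether their changes differ. In the 10 BAF subunit genes, 5 such differences passed limma's adjusted p of 0.05. They were 2 of 10 genes for iPS line 2 against iPS line 1, where 23.3% of all genes were called. Against iPS line 3 they were 3 of 10, beside 31.1% of all genes. Between iPS lines 3 and 1, 0 of 10 were called, beside 1.41%. Actl6a was lower in iPS line 2 than in iPS line 1 by a log2 difference of -0.36 (adjusted p 0.0259) and than in iPS line 3 by -0.53 (adjusted p 0.00199). Arid1a was lower in iPS line 2 than in iPS line 1 by -0.52 (adjusted p 0.000221) and than in iPS line 3 by -0.45 (adjusted p 0.000312). Smarca4 was higher in iPS line 2 than in iPS line 3 by 0.22 (adjusted p 0.0305). The Arid1a calls held under all 15 alternatives, and those of Actl6a and Smarca4 were lost under some, as given above. In each of the 5 differences, both iPS line 2 arrays lay on 1 side of both arrays of the other line at the main probe set. Of the other probe sets, Actl6a 1456730_x_at was called lower against both lines (-0.40 and -0.46), and Arid1a 1417440_at against iPS line 1 only (-1.07). Arid1a 1417440_at was not called against iPS line 3 (-0.45, limma adjusted p 0.194), nor was Smarca4 1426805_at (0.23, adjusted p 0.163). Actl6a 1429883_at was not called against iPS line 1 (-0.14, adjusted p 0.341) or iPS line 3 (-0.04, adjusted p 0.800). The actin 3'/5' ratio, given above, was higher in both iPS line 2 arrays than in the other arrays, while the Gapdh ratio overlapped. Utf1, Dppa4 and Pou5f1 were called lower in iPS line 2 against ES cells. Of the 10 pluripotent cell markers, limma called 2 lower and 1 higher in iPS line 2 against iPS line 1. Against iPS line 3, 2 were called lower and 0 higher. Of all 14005 genes, 1335 were called lower and 1931 higher in iPS line 2 against iPS line 1. Against iPS line 3, 1701 of all genes were called lower and 2660 higher. Of 8 tested neural markers, 3 were called lower in iPS line 2 against iPS line 1 and 4 against iPS line 3, with 0 called higher. Of 6 tested fibroblast markers, 1 was called higher and 0 lower against each line. Of 7 tested primitive endoderm markers, 0 were called against iPS line 1 and 1 lower against iPS line 3. The part of these values in the 5 differences was not tested.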

How the results depend on the processing

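For iPS line 3 against iPS line 1, 0 members were called by limma under all 15 alternatives (1 at an unadjusted p under 0.05 in the reported fit). With the mean of all probe sets as the gene value, 1 member (Smarcb1, whose 1435856_x_at probe set enters that mean) was called for the mean of the lines, 1 in iPS line 1 and 1 in iPS line 3; Smarce1 was then called lower in iPS line 2 against ES cells (-0.30, adjusted p 0.0499), iPS line 1 (-0.41, adjusted p 0.0150) and iPS line 3 (-0.38, adjusted p 0.0156). Without the intensity trend, 1 member was called in iPS line 2 against ES cells, 1 against iPS line 1, 1 against iPS line 3, and 0 member probe sets (8 had an unadjusted p under 0.05 in limma). Centring arrays on their medians gave 4 members for iPS line 2 against iPS line 1. Those added were Smarcb1 (-0.30, limma adjusted p 0.0458) and Smarce1 (-0.30, adjusted p 0.0304), both lower. Of all genes, 1082 were then called higher and 2025 lower in that comparison, beside 1931 and 1335 without centring. Leaving out 1 array gave 0 to 1 members for the mean of the lines (Actl6a, without iPS line 1 replicate 2), 1 to 2 for iPS line 2 against iPS line 1, and 3 to 9 member probe sets (3 and 5 with ES control replicate 1 or 2 removed, 4 with iPS line 2 replicate 2 removed). Srcap in iPS line 2 was 0.42, but -0.090 when its probe sets were averaged. The causes were not tested beyond what each alternative changes. Centring moved the median difference of all genes in iPS line 2 from 0.07 to -0.02 against ES cells, and from 0.08 to -0.05 against iPS line 3, and the share of higher calls against ES cells from 60.4% to 46.1% (52.9% with quantile normalization). Replicate numbers did not pair the arrays (correlations of deviations -0.0137 to 0.0286), and a replicate block left 3 members called in iPS line 2, 2 against iPS line 1, 3 against iPS line 3, and 8 member probe sets. Taking each line's mean as 1 sample, limma called 0 genes, with 280 at an unadjusted p under 0.05. Signals near the floor, as for Smarca2, limit what was resolved.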

Other observations

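Among the other ATP-dependent remodellers, ISWI genes had 1 of 11 called higher against ES cells for the 3 lines averaged, 0 in iPS line 1, 1 higher and 1 lower in iPS line 2, and 1 higher in iPS line 3, where 7.33%, 2.33%, 26.7% and 4.17% of all genes were called. Smarca1 (SNF2L), an ISWI ATPase, gave 236 and 150 in ES cells, 282 and 316 in iPS line 1, 264 and 367 in iPS line 2, and 402 and 319 in iPS line 3, and was higher by 0.73 ± 0.17 for the mean of the lines (limma adjusted p 0.0223). Without ES control replicate 2 that difference was 0.43 (adjusted p 0.306), and without iPS line 1 replicate 2 its adjusted p was 0.0503. In iPS line 2 Smarca1 was at 0.69 (adjusted p 0.0299) and in iPS line 3 at 0.88 (adjusted p 0.0385), and without ES control replicate 2 these were 0.39 (adjusted p 0.261) and 0.58 (adjusted p 0.252). Baz1a (ACF1), an ISWI partner, gave 1653 and 1734 in ES cells and 1235 and 1271 in iPS line 2, a difference of -0.43 (adjusted p 0.00168), while its other probe set, 1447930_at, overlapped (707 and 804 against 823 and 726), and with both averaged the adjusted p was 0.104.

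Of 21 CHD and NuRD genes, 1 was higher for the mean of the lines (Chd9, 0.34, limma adjusted p 0.0436), 0 were called in iPS line 1, 2 were higher and 1 lower in iPS line 2, and 1 was higher in iPS line 3, beside those same shares of all genes. The Chd9 mean call was lost under 13 of 20 alternatives, among them leaving out either ES array (adjusted p 0.125 and 0.320) or iPS line 2 (0.186). In iPS line 2, Mta1, a NuRD subunit, was at 0.46 (adjusted p 0.00603) and Chd9, a CHD ATPase, at 0.47 (adjusted p 0.00809), and in iPS line 3 Cdk2ap1, a NuRD subunit, was at 0.26 (adjusted p 0.0189). Leaving out 1 array ended these calls: Mta1 without iPS line 2 replicate 2 (0.0622), Chd9 without that array (0.0526) or ES control replicate 2 (0.0719), and Cdk2ap1 without any one array of the lines compared (0.0665 to 0.167). Of 25 INO80, SRCAP and TIP60-p400 genes, 0 were called for the mean and 0 in iPS line 1, 1 was higher and 6 were lower in iPS line 2, and 1 was higher in iPS line 3 (Epc1, a TIP60 subunit, 0.38, adjusted p 0.0422). The Epc1 call was lost without any one array of the lines compared (adjusted p 0.0706 to 0.255) and was at 0.00 with its probe sets averaged. Ino80e, an INO80 subunit, gave 836 and 742 in ES cells, 861 and 709 in iPS line 1, 432 and 334 in iPS line 2, and 824 and 814 in iPS line 3, a difference of -1.03 ± 0.13 in iPS line 2 (adjusted p 0.000124). Its probe sets 1424429_s_at and 1424428_at were also lowest in both iPS line 2 arrays. Ino80c was at -0.60 there (adjusted p 0.00222). The 6 of 25 called lower in iPS line 2 stand beside 10.6% of all genes.

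Over the 8 arrays, the signals most like Smarca4 were those of Faf2 (r = 0.98), Ugt8a (0.97) and Rtn4ip1 (0.97), and those most like Smarca2 were Slc51b (0.97), Reg4 (0.95) and Gm13032 (0.95). Among the members, Smarcc1 and Smarcd1 correlated at 0.88, Arid1a and Actl6a at 0.74, and Smarca4 and Actl6a at -0.85. The last 3 were chosen after their values were seen, and the arrays share 4 lines, so all of these are descriptions only.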
